A study of Anas platyrhynchos with 11 samples.

Results

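The CCN family comprises small secreted proteins of the extracellular matrix named after CYR61 (CCN1), CTGF (CCN2) and NOV (CCN3). All 6 family genes, CCN1 to CCN6, were found by gene name in the deposited table of 16823 genes from touch corpuscles and bill skin of the duck (Anas platyrhynchos), and all 6 passed the filter on low counts. No row carried an older name of the family. The rows were found by name, but the family was chosen by the library-scaled counts of its members in corpuscles and skin, which were already known. Those levels and their differences are therefore given as a description, without a p-value.

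CCN proteins are matricellular, which means that they signal from the matrix rather than build it. From studies in mammals, they are made of a module shared with the insulin-like growth factor binding proteins, a von Willebrand factor type C module, a thrombospondin module and, except in CCN5, a cysteine-knot module, and they bind integrins, heparan sulphate proteoglycans and growth factors. CCN1 and CCN2 are early response genes that mechanical strain, the YAP and TEAD transcription factors, serum response factor (SRF) and transforming growth factor beta (TGF-beta) induce in fibroblasts and other cells, while CCN3 often opposes CCN2 and restrains growth. In skin the family is known mainly from dermal fibroblasts, vessels and wound repair.

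Meissner corpuscles are touch end organs of bill skin in which lamellar cells, related to Schwann cells, enclose a sensory axon. There were 5 libraries of corpuscles, drawn up at 2 to 10 per pipette, and 6 of skin cells taken nearby without corpuscles. The labels give no age, sex or strain for the ducks. Per the labels the libraries of corpuscles and skin came from 3 independent skin isolations, but which library belongs to which isolation is not stated, and each p-value reflects the spread among libraries, which may be technical. Corpuscle and skin libraries came from different preparation kits (low-input for corpuscles), and the effect of the kit and that of the tissue cannot be told apart. The labels give RNA integrity numbers of 6.1 to 8.0 for corpuscles and none for skin, so RNA quality could not be compared between tissues. Total counts ran from 5766279 to 11886808 in corpuscles and from 13263776 to 20925841 in skin. On the second principal component, with 12.5% of the variance, corpuscles 4 and 5 (-123.6 and -35.5) and skin 5 and 6 (-15.1 and -19.3) lay below 0 and the other libraries above it. Markers of Merkel and neuroendocrine cells summed to 14839 to 79699 CPM (reads of a gene scaled to the library total after TMM adjustment) in corpuscles and to 1257 to 2535 CPM in skin. Most of this was the single gene CHGB, at 12605 to 68365 CPM in corpuscles and 739 to 1550 CPM in skin. In these bulk samples, fewer cells of a type and less RNA per cell cannot be told apart.

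CCN3 was almost absent from corpuscles and abundant in skin. It stood at 2.13, 0.942, 0.928, 2.695 and 1.98 CPM in corpuscles 1 to 5. In the 6 skin libraries it ran from 398 CPM through a median of 449.7 CPM to 760 CPM. The groups did not overlap, and the lowest skin library was 148-fold above the highest corpuscle library. The means were 1.74 ± 0.778 CPM (SD, n = 5) in corpuscles and 502 ± 137 CPM (SD, n = 6) in skin, so the corpuscle mean was 0.346% of the skin mean. In reads this was 83 over all corpuscle libraries and 48371 over all skin libraries. The fitted log2 fold change, corpuscle over skin, was -8.20 ± 0.38 (SE), and it lay between -8.38 and -8.03 when any 1 library was left out. Among 12586 tested genes with a symbol it was the lowest, and among all 14638 tested it ranked 4, after 3 locus identifiers that had means of at most 30.7 CPM in skin. A mean at least 100-fold lower in corpuscles was seen in 16 genes (0.109% of those tested). The authors' deposited table gives a log2 fold change, skin over corpuscle, of 8.27 for CCN3.

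CCN2, the connective tissue growth factor that drives matrix production in fibroblasts, had the highest mean level of the family in both tissues. In skin 1 and skin 2, however, it lay below CCN3. The level of CCN2 was 203.5, 229, 134, 321 and 390.4 CPM in corpuscles 1 to 5. In skin it ran from 224.5 CPM through a median of 606 CPM to 834 CPM. Corpuscle 3 was the lowest of all libraries, 3 of the 5 corpuscle libraries lay within the skin range, and the other 2 lay below it. The means were 256 ± 101 CPM in corpuscles and 560.2 ± 212 CPM in skin, and the log2 fold change was -1.13 ± 0.32 (-1.34 to -0.97 when any 1 library was left out). CCN2 was thus at 45.6% of its skin level in corpuscles, against 0.346% for CCN3.

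CCN1, the product of an early response gene that promotes adhesion and vessel growth, covered a wide range within corpuscles. It was at 68.3, 19.7, 105, 4.12 and 32.0 CPM in corpuscles 1 to 5, a range of 25.5-fold against 2.91-fold for CCN2. The range in corpuscles was 2.91-fold for CCN3 too, but 10.5-fold for CCN4 and 33.6-fold for CCN5. The lowest CCN1 level came from 26 reads in corpuscle 4, the library with the lowest total count. In skin CCN1 ran from 15.8 CPM through a median of 59.2 CPM to 148 CPM, a range of 9.36-fold. Of the corpuscle libraries 4 lay within the skin range, and corpuscle 4 lay below it. The means of 45.8 ± 40.7 and 66.7 ± 44.8 CPM differed by less than the SD of either group, with a log2 fold change of -0.54 ± 0.63. CCN1 and CCN2 did not follow each other in corpuscles. Corpuscle 3 had the most CCN1 and the least CCN2, and the ratio of CCN2 to CCN1 in FPKM, which is per length, ran from 1.07 to 65.2 in corpuscles and from 4.74 to 11.9 in skin. In skin, replicate 3 had the highest and replicate 1 the lowest level of CCN1, of CCN2 and of CCN3.

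CCN4, first described as WISP1, a gene induced by Wnt signalling, had mean levels in the 2 tissues that differed by less than the SD of either. It was at 23.0, 20.4, 8.35, 87.5 and 41.9 CPM in corpuscles 1 to 5. In skin it ran from 31.3 CPM through a median of 43.4 CPM to 56.5 CPM. Corpuscle 4 lay above the skin range, corpuscle 5 within it, and corpuscles 1 to 3 below it. The means were 36.2 ± 31.1 and 43.2 ± 10.4 CPM and the log2 fold change was -0.26 ± 0.46. Without corpuscle 4 it was -0.88, and without corpuscles 4 and 5 and skin 5 and 6 it was -1.15. Its sign turned within those 4 libraries (0.29) and with a minimum mean of 5 CPM (0.02). Those 4 libraries, 2 per tissue, were set apart by the second principal component of these same data. CCN4 was highest in corpuscles 4 and 5, so leaving them out lowers its corpuscle mean, and these fits are a description.

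CCN5, first described as WISP2, lacks the cysteine-knot module and is known for holding back growth of smooth muscle cells. It was at 5.95, 0.942, 0.928, 17.3 and 31.2 CPM in corpuscles 1 to 5. In skin it ran from 7.73 CPM through a median of 28.4 CPM to 32.0 CPM. Corpuscles 4 and 5 lay within the skin range and corpuscles 1 to 3 below it. The means of 11.3 ± 13.0 and 23.6 ± 9.57 CPM gave a log2 fold change of -1.07 ± 0.74. It was -1.94 without corpuscle 5, -2.95 without corpuscles 4 and 5 and skin 5 and 6, and -0.22 within those 4 libraries. CCN5 too was highest in corpuscles 4 and 5, so these fits have the same limit as for CCN4.

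CCN6, first described as WISP3 and known in humans from a heritable disorder of cartilage, was close to the limit of detection. It was at 0.533, 0, 1.11, 3.33 and 1.26 CPM in corpuscles 1 to 5. In skin it ran from 0.132 CPM through a median of 0.244 CPM to 1.40 CPM. It had 53 reads over all corpuscle libraries and 54 over all skin libraries, and the ranges of the tissues overlapped. A count of 0 in corpuscle 2 allows up to 0.283 CPM (3 counts, counting error only). The log2 fold change was 1.22 ± 0.81, was 0.50 without corpuscle 4, turned to -0.28 without corpuscles 4 and 5 and skin 5 and 6, and was 3.45 within those 4 libraries. As CCN6 was highest in corpuscles 4 and 5, these fits have the same limit as for CCN4.

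**Figure D1:**
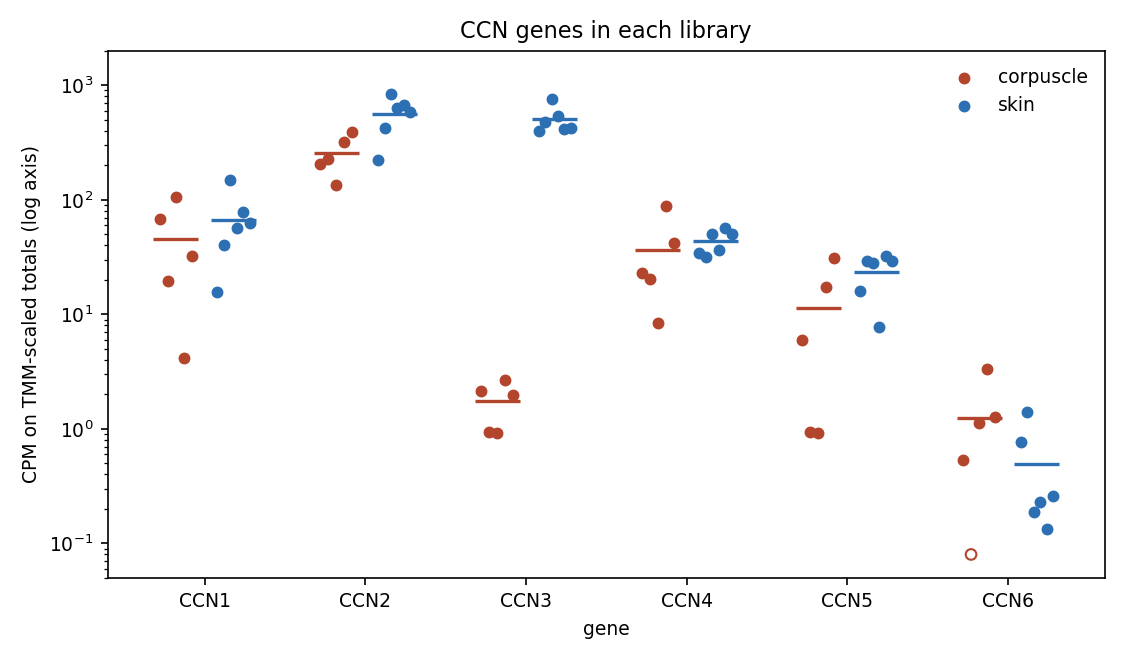
CPM of each CCN gene (log axis) in the 5 corpuscle and 6 skin libraries; points are libraries, in replicate order within each group, bars are group means, and the open circle is a library with 0 reads, drawn below the lowest value. CCN3 alone has no overlap between tissues, with 0.928 to 2.695 CPM in corpuscles and 398 to 760 CPM in skin.

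Of the 6 members, CCN3 alone did not overlap between tissues, beside 41.3% of all genes tested in either direction and 19.0% with corpuscles below skin. At a Benjamini-Hochberg adjusted p of 0.05 over all genes, edgeR's quasi-likelihood test called 2 members (CCN2 and CCN3), beside 56.4% of all genes. Since this contrast was in view when the family was chosen, nothing is read from these counts. The median log2 fold change was -0.80 over the 6 members and 0.18 over all genes tested.

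Compared per length, the family was made up differently in the 2 tissues. In skin the order of mean FPKM was CCN2 (257 ± 97.3), CCN3 (238 ± 65.1), CCN1 (36.6 ± 24.6), CCN4 (28.8 ± 6.96), CCN5 (12.1 ± 4.91) and CCN6 (0.381 ± 0.383). In that order CCN2 and CCN3 overlapped over the skin libraries, as did CCN1 and CCN4, and the other neighbours did not. In corpuscles the order of mean FPKM was CCN2 (111 ± 42.9), CCN1 (24.02 ± 21.4), CCN4 (22.7 ± 19.1), CCN5 (5.45 ± 6.27), CCN6 (0.9005 ± 0.8999) and CCN3 (0.780 ± 0.344). There CCN2 stood clear of CCN1, and every other pair of neighbours overlapped. Among all genes tested, CCN3 lay above 98.8% of genes by FPKM in skin and above 6.35% in corpuscles, while CCN2 lay above 98.9% and 95.5%.

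CCN2 and CCN3 shared most of the family's FPKM in skin, and CCN2 held most of it in corpuscles. CCN2 made up 66.4 ± 12.2% of the family's summed FPKM in corpuscles and 43.8 ± 7.33% in skin. CCN3 made up 0.466 ± 0.1501% and 42.8 ± 8.55%. The summed FPKM of the family ran from 120.4 to 229 in corpuscles and from 332 to 872 in skin, with no overlap. Leaving CCN3 out of the sum, corpuscles ran from 120 (corpuscle 3) to 228.5 (corpuscle 5) and skin from 143 (skin 1) to 512 (skin 3), so the groups overlapped.

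**Figure D2:**
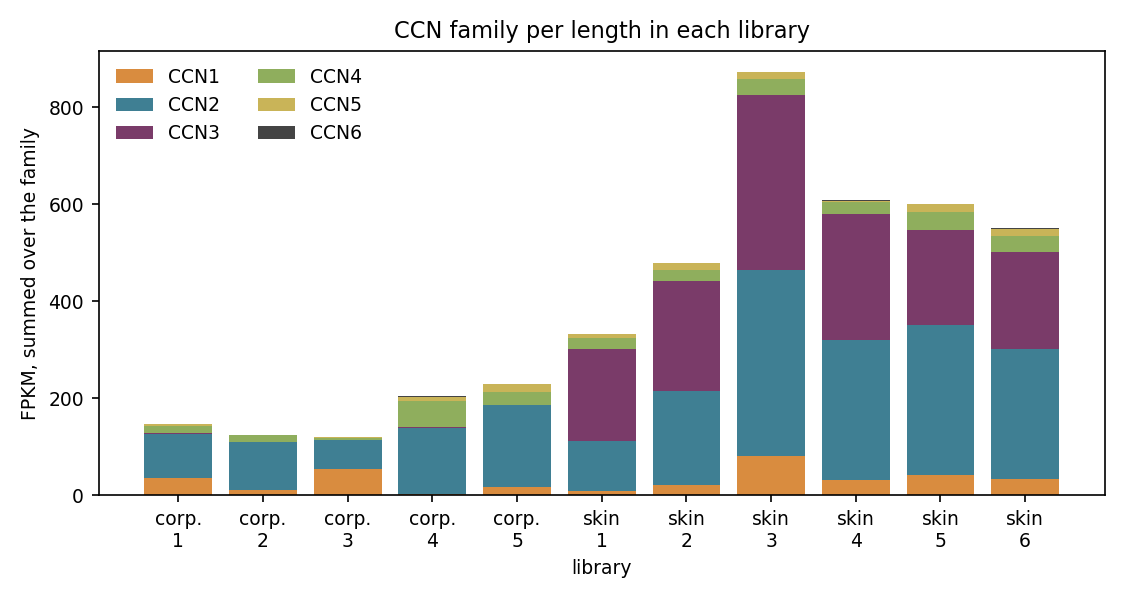
FPKM of the 6 CCN genes stacked for each of the 5 corpuscle (corp.) and 6 skin libraries; the height of a bar is the summed FPKM of the family. CCN3 makes up 32.6% to 56.9% of the bar in skin and at most 0.671% in corpuscles.

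The genes with profiles most like CCN3 were COCH, COL16A1 and ELN. Likeness was the root mean square distance between log2(CPM + 1) profiles, each centred on its mean over the 11 libraries, among 9344 genes with a symbol and a mean of at least 10 CPM. The nearest to CCN3 were COCH, a secreted protein of the inner ear matrix in mammals (distance 0.54), COL16A1, a collagen that associates with fibrils (0.58), and ELN, elastin (0.82), against a median distance of 3.63. Corpuscles held 5.85 ± 3.22 CPM of COCH against 839 ± 202 CPM in skin, and 7.80 ± 4.91 CPM of COL16A1 against 859 ± 188 CPM. The distance is not scaled, so for CCN3 it largely reflects the step between tissues by which the family was chosen. Within skin CCN3 and COL16A1 were highest in skin 3 (760 and 1167 CPM). COCH (1104 and 1049 CPM) and ELN (2272 and 2454 CPM) were highest in skin 5 and 6, with CCN3 at 412 and 422 CPM. CCN2 was nearest to TIPARP (0.42), PROM1 (0.43) and SEPTIN8 (0.43), with a median distance of 1.01. The profile of CCN4 was nearest to TWIST2 (0.22), a transcription factor of dermal cells, GAS1 (0.23), a membrane protein of growth arrest, and MGAT2 (0.32), an enzyme of N-glycan synthesis. For CCN1 the nearest were PCMTD1 (0.56), RARS1 (0.68) and TMEM43 (0.72), and for CCN5 CERCAM (0.55), SRGN (0.61) and ABAT (0.65). All these profiles come from the same 11 libraries in 2 tissues, and the distances are a description.

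Markers of 6 cell types that a sample could hold were set beside the CCN genes. Beside the counts of each list, 23.5% of all genes tested were called lower in corpuscles and 33.0% higher. Of the 17 fibroblast markers tested 11 fell and 2 rose, with summed levels of 19712 to 67255 CPM in corpuscles and 65427 to 102828 CPM in skin. The fibroblast marker lowest in corpuscles relative to skin was MFAP5, of elastic fibres, at 5.48% (log2 fold change -4.19 ± 0.28, adjusted p = 5.79e-08 by edgeR). The 2 that rose were THY1, at 543% of its skin level without overlap (2.44 ± 0.36, adjusted p = 4.26e-05), and COL5A1, at 316% with overlap (1.66 ± 0.39, adjusted p = 0.00196). Of 15 endothelial markers 13 fell and 0 rose, with summed levels of 108 to 267 CPM in corpuscles and 1476 to 2031 CPM in skin; the cadherin CDH5 was at 3.71% of its skin level (-4.75 ± 0.43, adjusted p = 6.4e-07). Of 10 smooth muscle and pericyte markers 8 fell and 0 rose (57.1 to 177 CPM and 521 to 769 CPM), with the actin ACTA2 at 3.15% (-4.99 ± 0.41, adjusted p = 3.33e-07). Of 9 keratinocyte markers 6 fell and 1 rose (310 to 587 CPM and 683 to 2168 CPM), with the desmosomal DSP at 5.84%, while 5 of the 14 listed, KRT5, KRT14 and KRT15 among them, were not analysed here. Of 11 Schwann markers 6 fell and 0 rose (1111 to 2090 CPM and 2056 to 3439 CPM), with the myelin gene PRX at 4.77%. Among those not called, SOX10 was at 158% and NGFR at 185% of the skin level. S100B, a defining glial gene, had no read in any library and was the sole marker of the 6 lists at 0 throughout a tissue. Of 12 Merkel and neuroendocrine markers 11 rose and 0 fell, led by CHGB (5.02 ± 0.38). The median marker stood at 42.4% of its skin level for fibroblasts and at 52.6% for Schwann cells. It was at 15.1% for endothelial cells, 29.0% for smooth muscle and pericytes and 23.4% for keratinocytes. Over these 6 lists, 0 of 74 tested markers had a corpuscle level, as a percentage of skin, below the 0.346% of CCN3. As CCN3 ranked lowest in log2 fold change among all tested genes with a symbol, this count adds no evidence. The part of these cell types in the CCN levels was not tested.

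**Figure D3:**
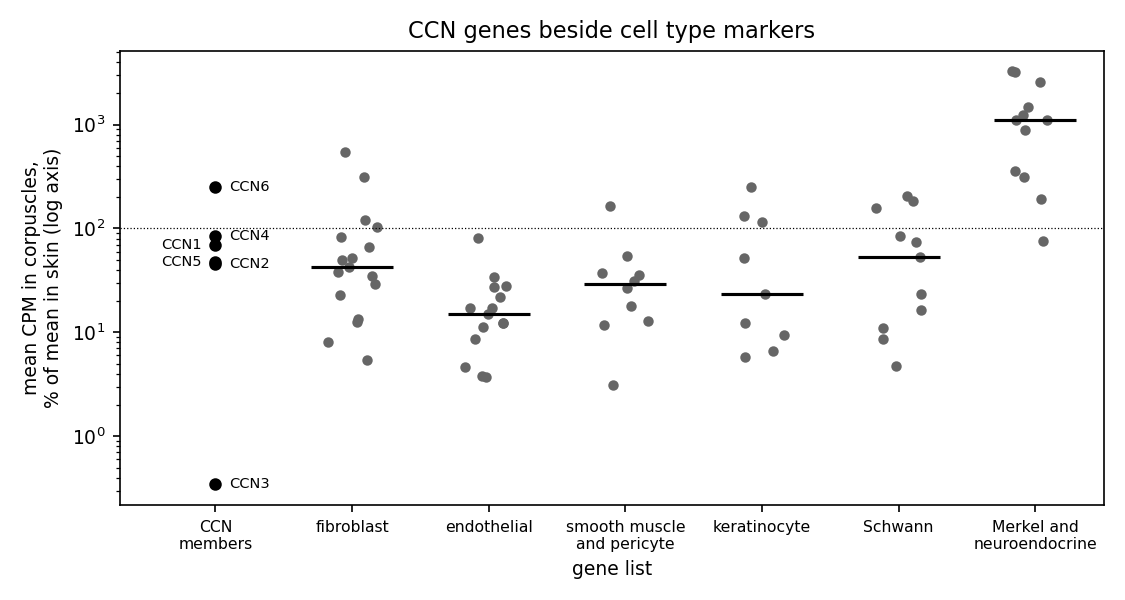
Mean CPM in corpuscles as a percentage of the mean in skin (log axis) for the CCN genes and for the tested markers of 6 cell types; grey points are genes, short bars are list medians and the dotted line marks 100%. CCN3 is at 0.346%, and ACTA2, the lowest marker, is at 3.15%.

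Within corpuscles, the summed fibroblast markers and CCN4 had the same order over the 5 libraries. The sums were 39040, 24300, 19712, 67255 and 59028 CPM in corpuscles 1 to 5. Collagens were the largest parts of this sum, led by COL1A2, COL3A1 and COL5A1 (means of 8244, 7598 and 6738 CPM in corpuscles). The same order was also seen in genes on no marker list. Among them were WWTR1 (173, 155, 122, 411.5 and 245 CPM in corpuscles 1 to 5) and TEAD3 (95.7, 84.2, 74.85, 299.8 and 158 CPM). CCN4 and CCN5 were both highest in corpuscles 4 and 5 and lowest in corpuscles 2 and 3, as the fibroblast sum was, while CCN1 was lowest in corpuscle 4. The smooth muscle and pericyte sum had this pattern too (177 and 137.5 CPM against 57.1 and 70.95 CPM). The endothelial, keratinocyte, Schwann and Merkel sums did not. Corpuscles 4 and 5 were also highest in CCN2 and lay below the other corpuscles on the second principal component. The immediate early genes summed to 2334, 2255, 1512, 1168 and 1277 CPM in corpuscles 1 to 5, lowest in corpuscle 4 as CCN1 was; the order otherwise differed, since CCN1 was highest in corpuscle 3, the third by this sum, and second lowest in corpuscle 2, the second highest by it. With 5 libraries these orders were not tested.

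The transcription factors through which mechanical signals reach CCN1 and CCN2 moved both ways. YAP1, the effector of the Hippo pathway, rose from 257 ± 37.5 CPM in skin to 656 ± 283 CPM in corpuscles (log2 fold change 1.35 ± 0.27, edgeR adjusted p = 0.000527). In corpuscle 3 YAP1, at 272 CPM, lay within its skin range of 211.5 to 303 CPM. Its paralogue WWTR1 (TAZ) fell from 365 ± 34.1 to 221 ± 115 CPM (-0.72 ± 0.27, adjusted p = 0.0317), but the call was lost without corpuscle 1, 2 or 3, without skin 1, 2, 4 or 6, and in 4 further settings (log2 fold changes of -0.72 to -0.08, with adjusted p between 0.05 and 0.852). Without corpuscles 4 and 5 and skin 5 and 6 the fall of WWTR1 was larger (-1.31, edgeR adjusted p = 0.00039). Of their DNA-binding partners TEAD1 fell (-1.46 ± 0.25, adjusted p = 0.000161) and TEAD3 rose (1.29 ± 0.33, adjusted p = 0.00351; 0.52 and adjusted p = 0.0666 without corpuscles 4 and 5 and skin 5 and 6). TEAD4 did not pass (-0.54 ± 0.44, adjusted p = 0.318), and TEAD2 was not analysed here. TEAD4 was at -2.19 within those 4 libraries (edgeR adjusted p = 0.0243) and at 0.02 without them (adjusted p = 0.959). Those 4 libraries lay below 0 on the second principal component of these same data, so the fits with and without them are a description. Of the 28 Hippo pathway genes tested 13 fell and 5 rose, beside 23.5% of all genes lower and 33.0% higher, with a median log2 fold change of -0.74. Among genes at 10 CPM or more without overlap, the atypical cadherin FAT4 fell most (-2.79 ± 0.24, adjusted p = 4.85e-07), followed by LIMD1, a LIM protein that binds LATS kinases (-1.97 ± 0.47, adjusted p = 0.00221; -2.78 without corpuscle 2). Of the Vestigial-like cofactors, which compete with YAP for TEAD and were picked out after their values were seen, VGLL3 fell from 51.3 ± 9.49 to 25.8 ± 6.98 CPM (-0.99 ± 0.28, adjusted p = 0.00639), and the other 3 rose. VGLL4 rose from 162 ± 27.5 to 484 ± 202 CPM (1.58 ± 0.29, adjusted p = 0.000289), with overlap between tissues. VGLL1 rose from 0.267 ± 0.191 to 3.16 ± 1.29 CPM (3.52 ± 0.53, adjusted p = 4.96e-05), while VGLL2 was near 0 in skin (0.0075 CPM, against 4.24 ± 3.81 CPM in corpuscles).

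Other known target genes of YAP and TEAD did not move as one group. Of 22 tested 9 fell and 4 rose (median log2 fold change -0.32), against 23.5% and 33.0% of all genes. GADD45A, a stress-induced regulator of the cell cycle, rose (2.72 ± 0.24, adjusted p = 6.48e-07), as did GGH, a folate hydrolase (1.30 ± 0.25, adjusted p = 0.000474). NT5E, the ecto-enzyme that makes adenosine, fell (-3.16 ± 0.51, adjusted p = 9.47e-05; -3.94 without corpuscle 1), and so did IGFBP3, a carrier of insulin-like growth factors (-2.61 ± 0.40, adjusted p = 6.15e-05).

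Among SRF and its cofactors and targets, 6 of 17 rose and 5 fell (median 0.26), shares near the 33.0% and 23.5% of all genes. SRF itself rose from 30.1 ± 4.19 CPM to 107 ± 52.5 CPM (1.83 ± 0.31, adjusted p = 0.000145), and ACTB, a cytoplasmic actin and SRF target, rose to 4643 ± 1352 from 1476 ± 126 CPM (1.65 ± 0.20, adjusted p = 8.76e-06). ELK3, an SRF partner (-1.65 ± 0.30, adjusted p = 0.000284), and FLNC, a muscle filamin (-1.90 ± 0.32, adjusted p = 0.000149), fell. Of 23 immediate early genes tested 6 rose and 5 fell (10 rose without corpuscle 5; median 0.38), which for higher genes is below the 33.0% and for lower genes near the 23.5% of all genes. The neuronal gene ARC (4.39 ± 0.69, adjusted p = 7.41e-05; 3.72 without corpuscle 3) and FOSB (4.33 ± 0.62, adjusted p = 3.19e-05) rose, while the zinc finger factors EGR1 (-2.39 ± 0.27, adjusted p = 4.53e-06) and EGR2 (-2.13 ± 0.55, adjusted p = 0.004; -2.95 without corpuscle 4) fell.

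Of 17 genes of the TGF-beta axis tested 9 fell and 3 rose (median -1.18), where 23.5% of all genes were lower and 33.0% higher; TGFB1 was not analysed here. SMAD3, the intracellular transducer, fell from 112 ± 5.75 to 13.3 ± 5.65 CPM (-3.08 ± 0.32, adjusted p = 2.01e-06), and ENG, a co-receptor that is also an endothelial marker, fell (-3.00 ± 0.47, adjusted p = 6.74e-05; -3.77 without corpuscle 1). PMEPA1, a TGF-beta target that limits the pathway, rose to 934 ± 744 from 186 ± 34.4 CPM (2.32 ± 0.40, adjusted p = 0.000181).

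Of the 23 receptors and matrix partners of CCN proteins tested, 13 fell and 4 rose (2 rose without corpuscle 5), with a median of -1.07; of all genes 23.5% were lower and 33.0% higher. LRP1, an endocytic receptor that binds CCN2, fell from 540 ± 98.7 to 33.5 ± 11.4 CPM (-4.01 ± 0.27, adjusted p = 5.77e-08), and HSPG2, perlecan, fell from 802 ± 115 to 42.5 ± 10.2 CPM (-4.24 ± 0.23, adjusted p = 1.5e-08). GPC1, a heparan sulphate proteoglycan of the cell surface, rose from 396 ± 45.8 to 3138 ± 1405 CPM (2.98 ± 0.30, adjusted p = 1.72e-06). Of the 9 integrin chains among them 4 fell, 3 rose and 2 were not called; ITGAV (-1.96) and ITGB1 (-1.93) fell, ITGA2B (3.39) rose and ITGB5 was not called (0.45, adjusted p = 0.172). NOTCH1, which CCN3 binds, fell to 33.6 ± 30.2 from 92.9 ± 12.4 CPM (-1.47 ± 0.45, adjusted p = 0.0113). These chains and NOTCH1 were named after their values were seen.

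Of 12 growth factors that CCN proteins can bind or modulate, 6 fell and 3 rose (median -0.77), beside 23.5% lower and 33.0% higher over all genes. PDGFA, a growth factor for mesenchymal cells, rose from 114 ± 10.1 to 773 ± 261 CPM (2.76 ± 0.24, adjusted p = 4.37e-07). IGF1 fell (-3.22 ± 0.51, adjusted p = 7.83e-05), as did FGF2 (-1.99 ± 0.52, adjusted p = 0.00456). Of 10 genes with the insulin-like growth factor binding module 5 fell and 2 rose (median -0.66), beside the same background. IGFBP5 rose from 16.6 ± 3.70 to 117 ± 50.5 CPM (2.81 ± 0.35, adjusted p = 8.98e-06), and the secreted protease HTRA3 fell (-4.10 ± 0.43, adjusted p = 2.17e-06).

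Of 25 other matricellular genes tested 13 fell and 4 rose (median log2 fold change -0.80), compared with 23.5% lower and 33.0% higher among all genes. THBS3, a thrombospondin, fell (-3.77 ± 0.34, adjusted p = 6.75e-07), and so did COMP, the thrombospondin of cartilage (-2.97 ± 0.55, adjusted p = 0.000333). TNR, the tenascin of the nervous system, rose from 0.562 ± 0.277 to 15.3 ± 5.52 CPM (4.73 ± 0.47, adjusted p = 1.43e-06), and SPOCK1, a proteoglycan first found in testis, rose (2.45 ± 0.47, adjusted p = 0.000382). Over the 9 lists, 0 tested genes had a log2 fold change below that of CCN3. This follows from its rank as the lowest of all tested genes with a symbol and adds no evidence.

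**Figure D4:**
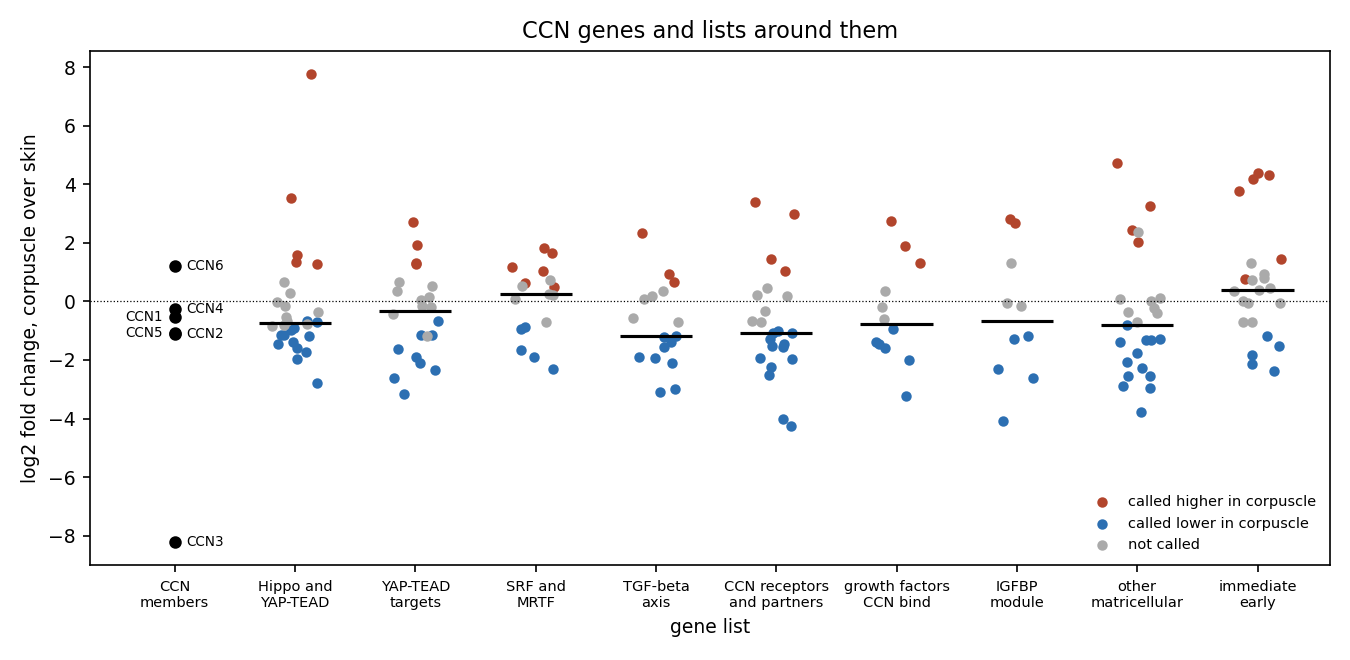
Log2 fold change, corpuscle over skin, of the 6 CCN genes (black, named) and of tested genes on 9 lists around them; red and blue points are genes called higher or lower at an adjusted p of 0.05, grey points were not called and short bars are list medians. The medians run from -1.18 (TGF-beta axis) to 0.38 (immediate early), and CCN3 stands at -8.20.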

How the data were processed

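The deposited table holds whole-number read counts per gene, which the authors did not normalize. It also holds normalized counts, a signal that the authors made by dividing each count by 1 factor per sample, and FPKM values deposited by the authors, equal to that signal per kilobase of 1 length per gene. The authors' log2 fold change (skin over corpuscle), p-value and false discovery rate are deposited too. STAR 2.7.7a and Trimmomatic 0.39 are listed per the submitters' processing notes, together with CASAVA 1.8.2, edgeR 3.38.4, R 4.2.1, and featureCounts and Subread 2.0.1; the genome build, annotation and strand setting are not given in the sources used here, so no coordinates are printed. Overlapping antisense genes could share reads.

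Corpuscle was compared with skin by the robust quasi-likelihood test of edgeR 4.0.16 (R 4.3.3) on counts filtered with filterByExpr and scaled by TMM, at a Benjamini-Hochberg threshold of 0.05, and 14638 of 16823 genes were tested. The SE is the log2 fold change divided by the root of its F statistic. Of 4214 locus identifiers 3196 matched a RefSeq table by gene ID and 603 gained a symbol. Levels between genes are in FPKM. At these depths 3 counts equal 0.135 to 0.476 CPM, covering counting error only. No pair of replicates matched within sampling noise. The chi-square per degree of freedom ran from 11.6 to 51.9 between skin libraries and from 90.5 to 193.5 between corpuscle libraries.

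The members and all lists were chosen with earlier results of these data known. The rule for named genes takes all members, YAP1, WWTR1 and TEAD1 to TEAD4, per list up to 2 called genes with the highest and 2 with the lowest fold change (at least 10 CPM in 1 tissue, no overlap), 1 gene per marker list and the 3 nearest profiles per member. Alternatives were DESeq2 1.42.0, limma-voom (limma 3.58.1), other scalings and filters, a replicate block, and fits without libraries. Figures were drawn with matplotlib 3.10.9.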

Additional observations from a re-analysis of the deposited data

Results flagged for a closer look

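In 11 of 122 groups of libraries (the members and the genes named by rule, in each tissue) 1 library lay far from the others; chance flags about 1 group in 20. The genes were named partly by their values and are not independent, so nothing is read from this count. None of the 6 CCN genes was among those flagged. In corpuscle 4 the neighbours of CCN4 by profile stood high, GAS1 at 616 CPM (78.9 to 215 in the other corpuscles) and MGAT2 at 64.5 CPM (3.06 to 12.3), and so did PROM1, a neighbour of CCN2, at 13.6 CPM (5.19 to 7.57). GAS1 and MGAT2 were picked for profiles like that of CCN4, which was itself highest in corpuscle 4, so their high level there adds no evidence. In corpuscle 1 NT5E was at 33.6 CPM (4.99 to 10.6) and ENG at 20.1 CPM (3.34 to 7.14). In corpuscle 2 LIMD1 was at 47.8 CPM (5.22 to 14.4), and in corpuscle 5 GGH was at 62.3 CPM (45.7 to 50.2). In skin 3 MFAP5 was at 239 CPM (144 to 170 in the other skin libraries) and SEPTIN8 at 289 CPM (216 to 242). In skin 1 SRF was at 38.1 CPM (26.5 to 30.7), and in skin 5 FOSB was at 2.32 CPM (0.25 to 0.912).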

How the results depend on the processing

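CCN1 (-1.78 to -0.02), CCN2 (-1.49 to -0.74), CCN3 (-8.67 to -7.43) and CCN5 (-2.95 to -0.22) had negative log2 fold changes in every fit run; CCN4 (-1.15 to 0.29) and CCN6 (-0.28 to 3.45) had both signs. Without corpuscles 4 and 5 and skin 5 and 6 the values were -8.67 for CCN3, -1.15 for CCN4, -2.95 for CCN5 and -0.28 for CCN6. Within those 4 libraries they were -7.43 for CCN3 and 3.45 for CCN6, and 1514 genes were called lower against 3437; fewer samples enter that fit. For CCN6 leaving out 1 library gave 0.50 to 1.55 over 9 fits; without skin 1 or skin 2, where it was highest in skin, it gave no value. The cause of the other shifts was not tested. The median over genes of the shift in log2 fold change from the main edgeR fit was 0.15 with upper-quartile factors. It was 0.23 with a minimum mean of 5 CPM, -0.16 with limma-voom and -0.14 with the replicate block. Relative to these shifts CCN3 ran from -8.20 to -8.07 and CCN4 from -0.52 to -0.20. CCN6 gave no value under the 5 CPM minimum either.

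The replicate numbers were not taken as pairs: same-numbered libraries correlated from -0.178 to 0.182 over 5 pairs in their deviations from the group means. With the replicate block 3790 genes were called higher and 3327 lower. No corpuscle correlated best with its own number (0 of 5), and 3 of the 5 skin libraries did. Corpuscles 4 and 5 correlated at 0.121 to 0.195 with skin 5 and 6 and below 0 with skin 1 to 4. Corpuscles 1 to 3 correlated at -0.183 to -0.102 with skin 5 and 6 and above 0 with skin 1 to 4. What these libraries share was not tested.

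Of 1155 values of named genes under alternatives, 19 lost and 13 gained a call and 0 changed sign with a call. Within corpuscles 4 and 5 and skin 5 and 6, ACTB (1.39, adjusted p = 0.0514), FLNC (-1.53, 0.0531), FGF2 (-2.51, 0.165) and EGR2 (-1.26, 0.152) lost theirs.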

Other observations

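In the gene order of the RefSeq table, CCN3 lies between ENPP2, which makes the lipid mediator lysophosphatidic acid, and MAL2, a membrane traffic protein. ENPP2 fell from 349.5 CPM in skin to 62.5 CPM (log2 fold change -2.48 ± 0.60, edgeR adjusted p = 0.00259) and MAL2 from 18.8 to 3.86 CPM (-2.28 ± 0.64, adjusted p = 0.0066). CCN3 itself stood at -8.20. Beside CCN2 lies MOXD1, a monooxygenase, which rose from 143 to 1160 CPM (3.02 ± 0.34, adjusted p = 4.19e-06). Of the other neighbours with a symbol, DDAH1 beside CCN1 (-2.65), ADA beside CCN5 (-2.01) and FYN beside CCN6 (-1.56) fell, TG beside CCN4 rose (2.25), and ZNHIT6 beside CCN1 (-0.50) and NDRG1 beside CCN4 (-0.73) were not called. These genes were chosen for their place, after the values of the CCN genes were seen.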
